A study of Mus musculus with 10 samples.

Results

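Thyroid hormone acts in the liver through a short chain of proteins, and 7 genes along that chain are described here: the deiodinase gene Dio1, the receptor genes Thra and Thrb, their dimerization partner Rxra, the transporter gene Slc16a10 and the responsive genes Thrsp and Klf9. They were chosen by name, as members of the pathway, out of 43629 genes listed for these livers, with earlier results of these data known. All 7 passed the filter on low counts and stand among the 14143 genes tested. None of the 7 differed between cachectic and non-cachectic livers past the threshold used here. The closest was Thra, with a lower mean in cachectic livers, and Dio1 and Thrsp varied most from liver to liver.

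The thyroid gland releases mostly thyroxine, a prohormone. Cells take it up through membrane transporters, and deiodinases convert it to triiodothyronine, the active form, or degrade both. Triiodothyronine binds the nuclear receptors encoded by Thra and Thrb, which sit on DNA largely as heterodimers with a retinoid X receptor, recruit corepressors without hormone and exchange them for coactivators when hormone binds. In liver, Thrb is regarded as the main receptor, and hepatic Dio1, Thrsp and Me1 are textbook readouts of hormone action. Severe illness and fasting are known to lower circulating triiodothyronine, but no hormone was measured in this dataset.

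The livers came from male KL mice, an inducible genetic model of lung cancer that was backcrossed to FVB. Tumours were started in adult animals by intranasal adenovirus carrying Cre under the CMV promoter, so both groups bore tumours and tumour-free controls were not analysed here. The groups were 5 mice without the cachexia syndrome (NCACS, mice 11 to 15) and 5 mice with it (CACS, mice 16 to 20). The study defined the syndrome by a loss above 15% of peak body weight. Labelled losses ran from 3 to 14% in NCACS mice, with mouse 15 at 14%, and from 29 to 33% in CACS mice. Weight change was -8.0 ± 4.64% (SD, n = 5) in NCACS mice and -30.6 ± 1.82% (SD, n = 5) in CACS mice. Total counts were 31945328 to 38306888 in NCACS and 31459179 to 40746178 in CACS libraries, and the lowest count of any of the 7 genes in any liver was 289. The labels give no preparation batch and no time of day of collection. In bulk tissue, fewer cells of a type and less RNA per cell cannot be told apart.

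Hepatocyte markers were abundant in every liver, with a summed level of 64644.8 to 108746.7 CPM (counts scaled to a common library size, with TMM factors) in NCACS and 103987.5 to 126727.0 CPM in CACS livers. Hnf4a, 1 of the 6, rose in CACS livers (log2 fold change 0.50, adjusted p = 0.0435, edgeR). No other hepatocyte marker passed, and Apob was negative (-0.28, adjusted p = 0.358, edgeR). All 5 Kupffer cell markers had negative log2 fold changes, and 1 of them, Cd5l, fell (-0.90, adjusted p = 0.0374, edgeR). Their summed level was 143.6 to 228.3 CPM in NCACS and 79.82 to 162.7 CPM in CACS livers. The summed leukocyte markers ranged from 9.346 to 28.2 CPM and from 5.692 to 13.62 CPM, respectively. The 5 sinusoidal endothelial markers all had positive log2 fold changes, with 0 past the threshold. Their sums were 119.8 to 162.4 CPM in NCACS and 152.2 to 198.5 CPM in CACS livers. Of all genes tested, 538 of 14143 (3.80%) had an adjusted p under 0.05 in edgeR. The 4 lung epithelium markers were each at 0 in some liver, and 2 of them passed the filter and were tested. The sums of the 4 were 0.08901 to 4.357 CPM in NCACS and 0.02623 to 5.58 CPM in CACS livers. The part of these cell types in the results below was not tested.

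Promoter sequence was examined because the receptors bind the hexamer AGGTCA, classically as a direct repeat spaced by 4 bases. In the RefSeq promoter windows on GRCm38.p6, from 250 bases before to 50 bases after a transcript start, 6 of the 7 genes matched, with 8 windows. No window was matched for Thra. The letters AGGTCA, read on either strand, stood in 2 of these 8 windows (25%), against 5340 of all 32851 windows (16.3%). The direct repeat, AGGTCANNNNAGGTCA on either strand, stood in 0 of the 8 windows and in 5 of all windows (0.0152%). The stretches holding the hexamer are printed for Thrb and Rxra with the hexamer in capitals (TGACCT is its reverse complement), because these are the only windows of the 7 genes with it, and Dio1 and Thrsp follow because these genes varied most between livers. All are written 5′ to 3′ along the strand of the gene, and none holds a base of an exon annotated in GENCODE M21. For Thrsp that annotation starts upstream of the RefSeq start, so only the 70 bases of the window before it are shown.
Thrb, chr14:17660756-17660801, forward strand: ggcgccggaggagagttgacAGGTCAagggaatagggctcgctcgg
Rxra, chr2:27709185-27709269, forward strand: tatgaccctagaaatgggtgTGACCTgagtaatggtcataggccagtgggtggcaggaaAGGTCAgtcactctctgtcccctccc
Dio1, chr4:107307170-107307319, reverse strand: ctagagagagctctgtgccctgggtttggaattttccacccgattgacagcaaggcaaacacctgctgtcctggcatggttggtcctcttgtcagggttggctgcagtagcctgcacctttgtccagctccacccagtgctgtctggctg
Thrsp, chr7:97417731-97417800, reverse strand: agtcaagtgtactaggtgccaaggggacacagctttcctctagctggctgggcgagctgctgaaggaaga
In Thrb the hexamer began 184 bases before the transcript start of its window. In Rxra the copies lay 87 (reverse strand) and 48 (forward strand) bases before the transcript start of that window. Each of these genes also has another window, at a different transcript start, without the hexamer. Both stretches lie inside the annotated span of their gene, which begins at 17660261 for Thrb and 27676440 for Rxra. These are matches of letters, not measured binding sites.

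Per exon length, as CPM per kilobase of exon (RPKM), the 7 genes covered a wide span of levels over the 10 livers. Thrsp was highest at 159 ± 85.2 RPKM (SD, n = 10), followed by Rxra at 85.4 ± 10.3 RPKM, Dio1 at 43.2 ± 46.7 RPKM, Klf9 at 14.4 ± 3.79 RPKM, Slc16a10 at 12.1 ± 2.21 RPKM, Thrb at 5.02 ± 1.0 RPKM and Thra at 3.25 ± 1.02 RPKM. Neighbours in this order were not cleanly apart in every liver. Thrsp exceeded Rxra in 8 of 10 livers, Rxra exceeded Dio1 in 9, Klf9 exceeded Slc16a10 in 9 and Thrb exceeded Thra in 9, whereas Dio1 exceeded Klf9 and Slc16a10 exceeded Thrb in all 10. The intervals of the mean ± SD overlapped for Thrsp with Rxra, Rxra with Dio1, Dio1 with Klf9, Klf9 with Slc16a10, and Thrb with Thra.

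**Figure D1:**
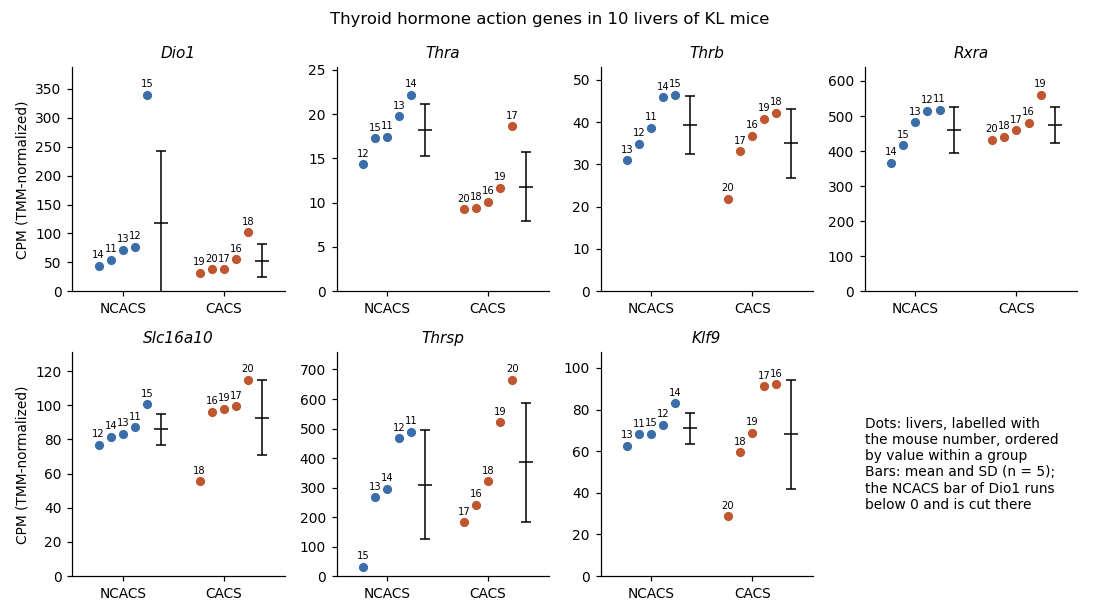
TMM-normalized CPM of the 7 genes on linear axes from 0, with 1 dot per liver labelled with its mouse number and ordered by value within a group, and bars for the mean and SD (n = 5; the NCACS bar of Dio1 runs below 0 and is cut there). The groups overlap for every gene, and NCACS mouse 15 stands apart for Dio1 (339.7 CPM) and Thrsp (31.78 CPM).

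Dio1 encodes the type 1 iodothyronine deiodinase, which removes iodine from thyroxine and is an abundant liver enzyme. The gene (ENSMUSG00000034785) lies on the reverse strand of chromosome 4 of GRCm38, 107291465 to 107307169. In the NCACS livers of mice 11 to 15 its level was 54.41, 76.75, 72.08, 44.32 and 339.7 CPM. The CACS livers of mice 16 to 20 had 54.97, 37.8, 102.0, 31.38 and 37.74 CPM. The livers of CACS mice 17, 19 and 20 lay below all NCACS livers, but NCACS mouse 15 was 5.37 times the median of the other NCACS livers, and CACS mouse 18 was above 4 of the 5 NCACS livers.

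The group means of Dio1 were 117.5 ± 124.9 CPM (SD, n = 5) for NCACS and 52.77 ± 28.87 CPM (SD, n = 5) for CACS. CACS over NCACS, its log2 fold change in edgeR's quasi-likelihood fit was -1.15 (standard error 0.556, 95% interval -2.37 to 0.06), with a Benjamini-Hochberg adjusted p of 0.254 across every gene tested. The exact two-sided permutation test over the 10 livers gave p = 0.206, where the smallest p that 5 against 5 allows is 0.00794. Without NCACS mouse 15 the log2 fold change was -0.23 (adjusted p = 0.752, edgeR). The other deiodinase genes were hardly present. Dio2, which activates thyroxine in other tissues, had 0 counts in every liver, where a count of 0 allows up to 3 counts or at most 0.0978 CPM, and Dio3, the inactivating deiodinase, had 0 to 5 counts.

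Thra encodes thyroid hormone receptor alpha and, by alternative splicing, a form that does not bind hormone, which gene counts do not separate. It lies on the forward strand of chromosome 11, 98740638 to 98769006 (ENSMUSG00000058756). The NCACS livers had 17.42, 14.34, 19.76, 22.16 and 17.26 CPM, from mouse 11 to mouse 15. The CACS livers had 10.07, 18.6, 9.431, 11.69 and 9.248 CPM, from mouse 16 to mouse 20. The livers of 4 of 5 CACS mice were below every NCACS liver, and CACS mouse 17 lay within the NCACS range.

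Averaged by group, Thra stood at 18.19 ± 2.938 CPM (SD, n = 5) for NCACS and 11.81 ± 3.916 CPM (SD, n = 5) for CACS. EdgeR estimated a log2 fold change of -0.62 (standard error 0.197, 95% interval -1.05 to -0.19), with an unadjusted p of 0.00846 and, after adjustment, 0.098, which misses the threshold of 0.05. The exact permutation test gave p = 0.0317. DESeq2 put the gene past the threshold (adjusted p = 0.0336) and limma-voom did not (adjusted p = 0.0805). Without CACS mouse 17 the log2 fold change was -0.84 with an adjusted p of 0.0154 in edgeR, in a fit that called 519 of 14269 genes (3.64%). The range of the adjusted p over the 17 alternatives was 0.0154 to 0.198.

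The 3′ end of Thra overlaps Nr1d1, which encodes the clock repressor REV-ERB alpha on the opposite strand, and 263 exon bases are shared. The libraries were stranded, but the strand setting of the counting is not given in the sources used here, so reads over these bases could have been assigned to either gene or left out. Nr1d1, named after its values were seen, had 131.9, 118.5, 156.2, 200.5 and 37.98 CPM in the NCACS livers. Its CACS values were 19.56, 72.29, 27.09, 72.26 and 14.26 CPM, so the groups overlapped only through NCACS mouse 15 (log2 fold change -1.65, adjusted p = 0.093 in edgeR and 0.0434 in DESeq2). The part of Nr1d1 in the Thra counts was not tested.

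Thrb, on the forward strand of chromosome 14 at 17660261 to 18038090 (ENSMUSG00000021779), encodes thyroid hormone receptor beta. Its NCACS values were 38.72, 34.85, 30.92, 45.89 and 46.42 CPM, and its CACS values 36.83, 33.1, 42.19, 40.79 and 21.87 CPM. Only CACS mouse 20 fell outside the NCACS range. The means of 39.36 ± 6.79 CPM (SD, n = 5) and 34.96 ± 8.132 CPM (SD, n = 5) gave a log2 fold change of -0.17 (standard error 0.176, 95% interval -0.56 to 0.21, adjusted p = 0.614, edgeR), and -0.04 without CACS mouse 20.

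Rxra, on the forward strand of chromosome 2 at 27676440 to 27762957 (ENSMUSG00000015846), encodes retinoid X receptor alpha, the partner of many hepatic nuclear receptors. The NCACS livers had 517.0, 514.3, 481.6, 366.4 and 416.3 CPM and the CACS livers 479.8, 459.5, 440.4, 560.1 and 431.2 CPM. The ranges overlapped, with NCACS mice 14 and 15 below every CACS liver and CACS mouse 19 above every NCACS liver. Means were 459.1 ± 65.86 CPM (SD, n = 5) and 474.2 ± 51.52 CPM (SD, n = 5), with a log2 fold change of 0.05 (standard error 0.127, 95% interval -0.23 to 0.33, adjusted p = 0.872, edgeR). A missed threshold does not show that the groups were alike.

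Setting the receptors against each other, the level of Thrb per exon length divided by that of Thra was 1.39, 1.51, 0.975, 1.29 and 1.68 in the NCACS livers, from mouse 11 to mouse 15. In the CACS livers the ratio was 2.28, 1.11, 2.79, 2.17 and 1.47. CACS mice 16, 18 and 19 were above every NCACS liver and the other two lay within the NCACS range, with means of 1.37 ± 0.263 (SD, n = 5) and 1.97 ± 0.67 (SD, n = 5). The ratio of Rxra to Thrb on the same scale was 16.4 ± 4.67 (SD, n = 5) and 19.2 ± 4.61 (SD, n = 5). These ratios are descriptions, and no test was run on them.

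Slc16a10 encodes MCT10, a transporter of aromatic amino acids and thyroid hormones, on the reverse strand of chromosome 10 at 40033532 to 40142258 (ENSMUSG00000019838). NCACS livers had 87.08, 77.0, 83.31, 81.6 and 100.5 CPM, and CACS livers 96.29, 99.26, 55.48, 98.0 and 114.7 CPM. CACS mouse 20 was above every NCACS liver, CACS mice 16, 17 and 19 were above all but that of mouse 15, and CACS mouse 18 was below every other liver. The means were 85.89 ± 8.912 CPM (SD, n = 5) and 92.74 ± 22.1 CPM (SD, n = 5), with a log2 fold change of 0.11 (standard error 0.164, 95% interval -0.25 to 0.47, adjusted p = 0.747, edgeR), and 0.25 without CACS mouse 18 (adjusted p = 0.201).

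Thrsp encodes Spot 14, a nuclear protein tied to fatty acid synthesis whose hepatic transcription follows thyroid hormone and carbohydrate intake. It lies on the reverse strand of chromosome 7 at 97412938 to 97417730 (ENSMUSG00000035686). NCACS livers had 489.7, 467.2, 267.4, 294.9 and 31.78 CPM, and CACS livers 242.5, 182.3, 320.9, 520.5 and 664.9 CPM. The median of the other 4 NCACS livers was 12 times the value of NCACS mouse 15, the same liver that had the highest Dio1. Counts ran from 1029 to 23222 per liver, so counting error is small beside this spread.

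For Thrsp the means were 310.2 ± 184.7 CPM (SD, n = 5) and 386.2 ± 201.4 CPM (SD, n = 5), and the log2 fold change was 0.32 (standard error 0.562, 95% interval -0.91 to 1.54, adjusted p = 0.790, edgeR). Without NCACS mouse 15 the log2 fold change was 0.03, and without CACS mouse 20 it was also 0.03.

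Klf9 encodes a zinc finger transcription factor that both triiodothyronine and glucocorticoids induce, on the forward strand of chromosome 19 at 23141226 to 23168134 (ENSMUSG00000033863). NCACS livers had 68.06, 72.5, 62.54, 82.99 and 68.34 CPM, and CACS livers 92.17, 91.2, 59.36, 68.82 and 28.69 CPM. The NCACS values were tight, while the CACS values reached both above and below them. Means of 70.89 ± 7.633 CPM (SD, n = 5) and 68.05 ± 26.19 CPM (SD, n = 5) gave a log2 fold change of -0.06 (standard error 0.25, 95% interval -0.61 to 0.49, adjusted p = 0.922, edgeR), and 0.14 without CACS mouse 20.

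Counted together, 0 of the 7 genes passed the threshold in edgeR, where 538 of all 14143 genes did (3.80%). At an unadjusted p under 0.05 the count was 1 of 7, Thra, against 3051 genes (21.6%). DESeq2 called 1 of 7, also Thra, against 1386 of 13859 genes (10%), and limma-voom called 0 of 7, against 509 of 14143 genes. In none of the 7 were the groups free of overlap, against 1000 of all genes tested (7.07%). None of these counts exceeds its background share of 7 genes by as much as 1 gene.

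Leaving out 1 liver at a time moved the fold changes of the more variable genes a good deal. Dio1 ranged from -1.54 (without CACS mouse 18) to -0.23 (without NCACS mouse 15), and Klf9 from -0.19 to 0.14. Thra stayed negative throughout, from -0.84 to -0.54. CACS mouse 20 was the highest or lowest of the 10 livers for 5 of the 7 genes, and for 26.9% of all genes tested. NCACS mouse 15 was at an end for 3 of the 7 and for 29.3% of all genes tested.

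**Figure D2:**
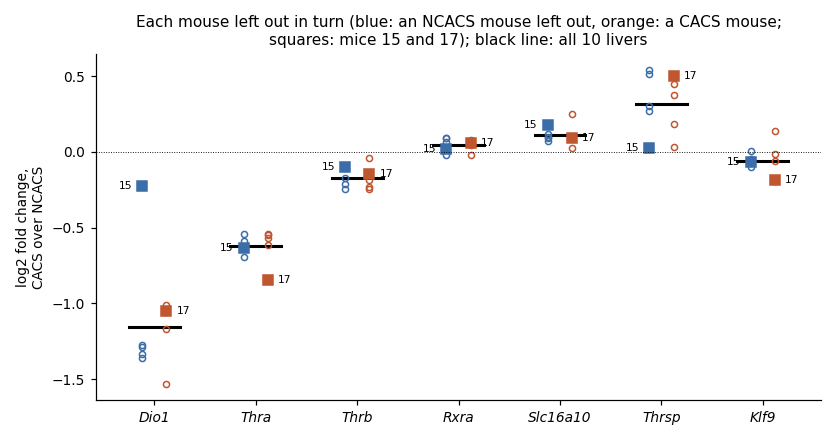
Log2 fold change, CACS over NCACS, of each of the 7 genes from edgeR with all 10 livers (black line) and with each mouse left out in turn (blue for an NCACS mouse, orange for a CACS mouse, squares for mice 15 and 17). The Dio1 value without NCACS mouse 15 (-0.23) stands apart from the rest, and every Thra value is negative.

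The wider pathway was described with 7 lists of known members, 47 genes in all, of which 44 were tested. Dio2, Dio3 and the transporter gene Slco1c1, with 0 to 5 counts per liver, were too low. Of these 44, 0 were higher and 0 lower past the threshold in edgeR, beside 267 of all 14143 genes higher and 271 lower (1.92%). Limma-voom called 0 of the 44, beside 509 of the 14143 genes. At an unadjusted p under 0.05 in edgeR there were 11 of 44, of which 7 were higher and 4 lower, beside 3051 of all 14143 genes (21.6%). Positive and negative log2 fold changes were near balance at 21 and 23, with a median of -0.01 for the 44 genes and -0.01 for all genes tested. DESeq2 called 4 of the 44, namely Thra, Slc17a4, Me1 and Serpina7, beside 1386 of 13859 genes (10%). The solute carrier gene Slc17a4 was named after its values were seen. Among the 7 transport genes tested, 4 were positive and 3 negative, and the median log2 fold change was 0.01.

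**Figure D3:**
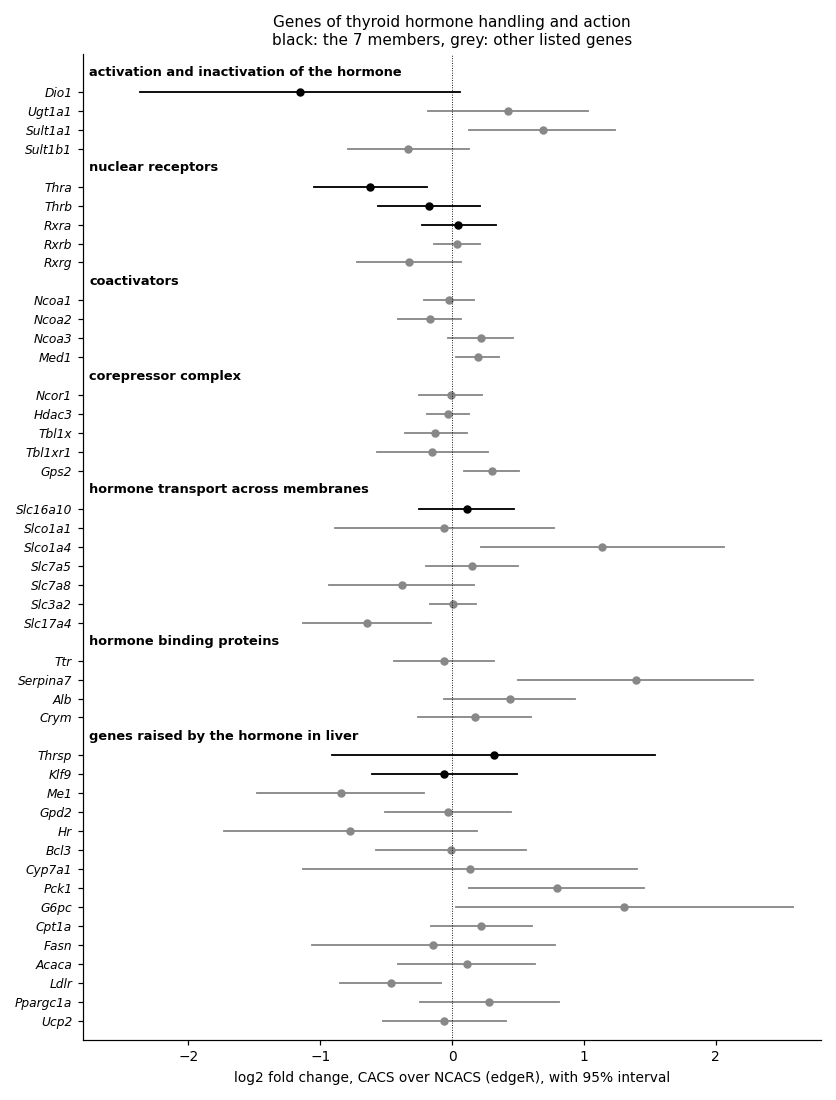
Log2 fold change, CACS over NCACS, with its 95% interval from edgeR for the 44 tested genes of the 7 lists, grouped by role (black for the 7 genes described here, grey for the others). Among the 7 genes the interval of Thra (-1.05 to -0.19) lies below 0 while those of the other 6 span 0, and Serpina7 has the largest positive value at 1.39.

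The hormone-binding proteins of plasma are made in the liver. Serpina7, which encodes thyroxine-binding globulin, had 46.28, 77.33, 102.9, 30.41 and 95.92 CPM in NCACS livers and 209.6, 241.7, 131.9, 278.3 and 64.48 CPM in CACS livers. All CACS livers but that of mouse 20 were above every NCACS liver. The means of 70.58 ± 31.38 CPM (SD, n = 5) and 185.2 ± 86.4 CPM (SD, n = 5) gave a log2 fold change of 1.39 (standard error 0.406, 95% interval 0.50 to 2.28), which missed the threshold in edgeR (adjusted p = 0.0774) and passed it in DESeq2 (0.00685) and in edgeR without CACS mouse 20 (1.61, adjusted p = 0.0486). The adjusted p over all alternatives ran from 0.00685 to 0.159. Ttr, which encodes transthyretin, was at -0.06 on the log2 scale (adjusted p = 0.887, edgeR), and the median of the 4 binding protein genes was 0.31.

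**Figure D4:**
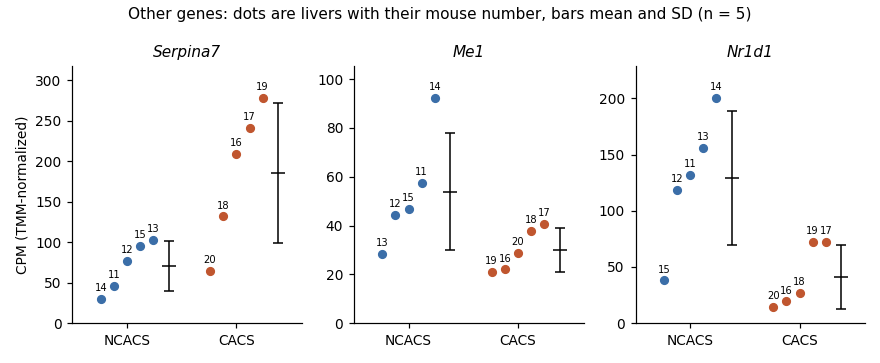
TMM-normalized CPM of Serpina7, Me1 and Nr1d1 on linear axes from 0, with 1 dot per liver labelled with its mouse number and bars for the mean and SD (n = 5). The groups overlap for each of the 3 genes, through CACS mouse 20 (64.48 CPM) for Serpina7 and NCACS mouse 15 (37.98 CPM) for Nr1d1.

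The list of genes that thyroid hormone raises in liver showed no common direction, with 7 positive and 8 negative of 15 tested. Of these, 0 passed the threshold in edgeR, the median was -0.01 and the range -0.85 to 1.31. Dio1 (-1.15) was not among the 15, because it was counted with the genes of hormone activation and inactivation. Me1, the malic enzyme that supplies NADPH for lipogenesis, had 57.62, 44.31, 28.52, 92.29 and 46.76 CPM in NCACS livers and 21.99, 40.63, 37.79, 20.96 and 28.69 CPM in CACS livers. Its log2 fold change of -0.85 (standard error 0.289) had an adjusted p of 0.121 in edgeR and 0.0373 in DESeq2. Gpd2, the mitochondrial glycerol-3-phosphate dehydrogenase, was at -0.03 (adjusted p = 0.953, edgeR) and Hr, a nuclear corepressor with 10 to 51 counts per liver, at -0.77 (adjusted p = 0.330, edgeR).

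None of the tested cofactor genes passed the threshold in edgeR. Ncor1 was at -0.01 on the log2 scale (adjusted p = 0.972, edgeR), and the median of the 5 corepressor genes was -0.03, with 1 positive and 4 negative. The positive one was Gps2, a subunit of the corepressor complex named after its values were seen, at 0.30 (95% interval 0.09 to 0.51, unadjusted p = 0.00829 and adjusted p = 0.0968 in edgeR, adjusted p = 0.0579 in DESeq2). Of the 4 coactivator genes, 2 were positive and 2 negative, with a median of 0.09. Med1, a subunit of the Mediator complex, was at 0.20 and Ncoa1 at -0.02 (adjusted p = 0.160 and 0.919, edgeR). Rxrb, the second retinoid X receptor, was at 0.04 (adjusted p = 0.842, edgeR). The 5 nuclear receptor genes had a median of -0.17 and the 4 tested genes of hormone activation and inactivation a median of 0.05, with 0 of either past the threshold in edgeR.

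Weight loss differed within the groups too, so each gene's log2 CPM was fitted on weight change with the groups kept apart, and the p came from exact permutation of the weights within each group (14400 pairings). For Dio1 the slope was -0.231 log2 CPM per percentage point of weight change, which means higher levels in mice that had lost more. It was -0.216 within NCACS and -0.33 within CACS livers, the opposite direction to the difference between the group means. The exact p was 0.00111 unadjusted and 0.383 adjusted over all genes tested, so it does not pass. Without NCACS mouse 15 the slope was -0.147 (exact p = 0.00556), and with each liver left out in turn the exact p ranged from 0.00139 to 0.0181. With weight change as a term beside group in edgeR, a fit added after the data were seen, the slope was -0.245 (adjusted p = 0.0739).

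Across all genes, 948 (6.70%) had an exact p under 0.05 for this slope, 41 (0.29%) had one as small as that of Dio1, and 0 passed after adjustment, against 2 in the edgeR fit. Thrsp had the opposite sign at 0.242 (exact p = 0.0686), which was 0.0522 without NCACS mouse 15, the mouse with the largest loss in its group at 14%. The unadjusted exact p of Thrsp was 0.024 without CACS mouse 17, and that of Slc16a10 was 0.0444 without NCACS mouse 15. The slopes of Thra (0.0286), Thrb (-0.0121), Rxra (-0.00219), Slc16a10 (0.0089) and Klf9 (0.00316) had exact p-values of 0.313 to 0.931 with all livers.

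**Figure D5:**
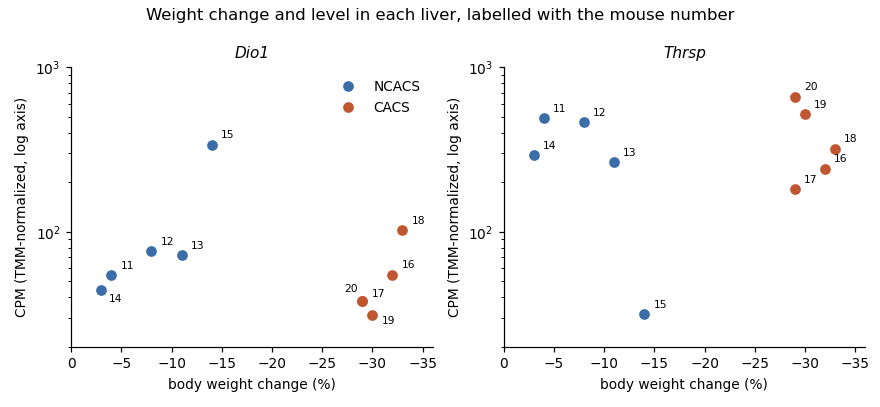
CPM of Dio1 and Thrsp on a log axis against body weight change in percent, with 1 dot per liver labelled with its mouse number and larger losses to the right. Dio1 is higher toward larger losses within each group (slopes of -0.216 and -0.33 log2 CPM per percentage point), and the NCACS and CACS mice form separate clusters on the weight axis.

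After removing the group means, the Pearson r of the 21 pairs among the 7 genes ran from -0.78 to 0.67 over 10 livers. The highest was that of Thrb with Klf9 (0.67, and 0.72 without NCACS mouse 15), followed by Thra with Klf9 (0.51 either way). CACS mouse 20 had the lowest level of all livers for Thrb (21.87 CPM), Thra (9.248 CPM) and Klf9 (28.69 CPM). These r values were not computed without that liver, so how far they rest on it was not tested. The lowest was that of Dio1 with Thrsp, at -0.78 with all livers and -0.20 without NCACS mouse 15, so this relation rests on that liver. Other pairs were more negative without NCACS mouse 15. Dio1 with Slc16a10 went from -0.19 to -0.83, the lowest of all pairs in that setting. Thrsp with Klf9 went from -0.32 to -0.73, and Thra with Thrsp from -0.25 to -0.66. The genes most like each responsive gene were found in the same way among 9212 genes with a mean of at least 5 CPM. For Dio1 they were Psip1 (r = 0.958), which encodes a chromatin-binding coactivator, Pitpna (0.950), a phosphatidylinositol transfer protein, and Pxmp4 (0.943), a peroxisomal membrane protein. Without NCACS mouse 15 these values were 0.865, 0.906 and 0.840.

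For Thrsp the closest was the clock gene Per2 (r = 0.987, and 0.944 without NCACS mouse 15), followed by the ephrin receptor gene Epha1 (0.979, and 0.910 without that liver) and the transcription factor gene Sox12 (0.954, and 0.837). Without that liver these ranked 5, 25 and 96 of the 9212 genes. For Klf9 they were Tnrc6b (0.959), which encodes a protein of microRNA silencing, Zfp46 (0.951) and Hps4 (0.939), with the same values when NCACS mouse 15 was left out. The Klf9 level of that mouse (68.34 CPM) lay within the range of the other livers. The r values were not computed without CACS mouse 20, which had the lowest Klf9 level (28.69 CPM). These r values are descriptions over 10 livers that also enter every other value here, and the genes were picked as the highest of many.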

How the data were processed

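RNA of 10 livers was sequenced as single reads of stranded poly(A) libraries. Per the submitters' processing notes, STAR 2.4.1d and HTSeq 0.6.1 were used with GRCm38, and the authors deposited raw counts per gene with no normalization. The annotation release and the strand setting are not given in the sources used here. The study also drew on 10 other livers of KL mice, which were not analysed here. The authors' own batch correction was not repeated, and the labels of these livers give no batch. The 0 unused columns and 1081 identifiers without a symbol in GENCODE M21 (70 of them tested) changed nothing for the 7 genes.

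The counts were filtered with filterByExpr, TMM-normalized and tested with edgeR 4.0.16 (limma 3.58.1, DESeq2 1.42.0, R 4.3.3), with Benjamini-Hochberg adjustment over all 14143 genes and a threshold of 0.05. Log2 CPM used a prior count of 2. Exact permutations of the labels (252 assignments) and of the weights within groups used Python 3.11.15. Steps were tested on simulated data. Replicates were separate mice by their labels, and counts of any pair of livers within a group differed beyond sampling noise (chi-square over its degrees of freedom at least 50.1). Alternative settings comprised RLE or upper-quartile factors, raw totals, no low-count filter, a minimum of 10 counts in every liver, the tests of DESeq2 and limma-voom, and omission of each mouse.

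Named genes were the 7 genes, list genes past the threshold, a fixed set of others (Me1, Gpd2, Hr, Dio2, Dio3, Serpina7, Ttr, Ncor1, Med1, Ncoa1 and Rxrb) and the 3 most alike to Dio1, Thrsp and Klf9. The 7 genes and the lists were chosen with earlier results of these data known. Some genes of the lists are not reported here and enter none of the list counts. Slope p-values were adjusted over all genes in place of the planned 7.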

Additional observations from a re-analysis of the deposited data

Results flagged for a closer look

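In groups of 5 livers, a highest or lowest log2 CPM was picked out by its gap to the nearest liver. The gap had to exceed 0.71 of the group's range on that scale, Dixon's 95% critical value. The ratios below are of log2 CPM, while the levels beside them are printed as CPM. This rule was applied to 32 combinations of gene and group, of which chance alone picks about 1 in 20, and 4 were picked. Dio1 was high in NCACS mouse 15, at 339.7 CPM against 76.75 CPM in the next liver (ratio 0.731). Thrsp was low in the same liver, at 31.78 CPM against 267.4 CPM (ratio 0.779). Slc16a10 was low in CACS mouse 18, at 55.48 CPM against 96.29 CPM (ratio 0.759). Gpd2 was high in CACS mouse 18, at 48.95 CPM against 29.71 CPM (ratio 0.869).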

How the results depend on the processing

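Thra passed the threshold in DESeq2 (log2 fold change -0.63, adjusted p = 0.0336), which called 1 of the 7 genes and, among the listed genes, 1 higher and 3 lower. With raw totals the slope of Rxra was 0.00255 and the log2 fold change of Ncor1 0.0022, both of changed sign, and the Dio1 slope with the edgeR weight term was -0.245 (adjusted p = 0.0739). Leaving out each mouse gave log2 fold changes of -1.54 to -0.23 for Dio1, -0.84 to -0.54 for Thra, -0.25 to -0.04 for Thrb, -0.0235 to 0.0937 for Rxra, 0.02 to 0.25 for Slc16a10, 0.03 to 0.54 for Thrsp and -0.19 to 0.14 for Klf9. The same fits gave -0.23 to 0.17 for Gpd2, -0.17 to 0.0101 for Ttr, -0.0745 to 0.0593 for Ncor1 and -0.0485 to 0.0266 for Ncoa1. Slopes ran from -0.271 to -0.147 for Dio1, 0.0142 to 0.044 for Thra, -0.0396 to 0.0132 for Thrb, -0.0218 to 0.0256 for Rxra, -0.0132 to 0.0484 for Slc16a10, 0.0522 to 0.317 for Thrsp and -0.0169 to 0.0268 for Klf9. Between 0 and 1 of the 7 genes passed (Thra, without CACS mouse 17), and 0 to 1 listed genes were higher and 0 to 2 lower. The causes were not tested. No paired analysis was made because the labels give no pairing of NCACS with CACS mice.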
